A study of Saccharomyces cerevisiae with 72 samples.

Results

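The comparison described here is wild-type Saccharomyces cerevisiae treated for 1 h with 3-aminotriazole (3-AT) at 10 mM against the same strain left untreated. Its members are the 8 arrays whose titles name wild type with 3-AT (4 arrays) or wild type untreated (4 arrays), of 72 arrays in the series, and it is described across all genes on the array. The series covers 6 genotypes and 3 treatments and, as its design text says, set out to learn how the TOR and general amino acid control pathways shape the transcriptome under amino acid starvation and rapamycin. The 3-AT group was strain KY652 with 3-AT for 1 h, and the untreated group was KY652 with no stress. Both were grown in synthetic medium with 2% dextrose and 0.5% ammonium sulfate that held every amino acid but histidine. For a later comparison, the gcn4 deletion strain KY656 and the gln3 deletion strain KY640 were each used with 3-AT and untreated, 4 arrays per group. The labels do not say whether replicates are separate cultures, so every p-value measures the spread between these arrays, which may be technical.

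3-AT inhibits His3, an enzyme of histidine synthesis, so that cells in medium without histidine run short of it. Uncharged tRNA then activates the kinase Gcn2, general translation initiation slows, and translation of GCN4 mRNA increases. Gcn4 is the transcription activator of most amino acid biosynthetic genes. The chemical is also known to inhibit other enzymes, catalase among them, so a response to it need not all pass through histidine.

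The measurement is an Affymetrix yeast array signal, a brightness in arbitrary units that the authors scaled so that every array has the same trimmed mean. A change in total mRNA per cell therefore cannot be told apart from no change. The signals of one gene can be compared between arrays, but those of different genes cannot be set against each other. A log2 change is the mean log2 signal in 3-AT minus that in untreated cells, given with its standard error (4 arrays per group). A gene is said to rise or fall only where limma's p-value, adjusted over all 6166 probe sets tested, was under 0.05. A probe set was tested if it was above background, the 30th percentile of its own array, on at least 4 of the 8 arrays.

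The 8 arrays were alike in quality. The actin 3′/5′ ratio, a measure of RNA integrity, was 1.497 to 2.04 in 3-AT and 1.43 to 1.72 in untreated cells. Arrays correlated at 0.976 to 0.984 within the 3-AT group, at 0.974 to 0.979 within the untreated group and at 0.926 to 0.951 between groups. The median signal was 334 to 372 on the 3-AT arrays and 281 to 329 on the untreated ones, so the groups differed in the shape of the signal distribution although their trimmed means were equal.

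The response to 3-AT reached across the genome. Of 6166 probe sets, 3332 (54.0%) passed the test, 1896 higher (30.7%) and 1436 lower (23.3%) in 3-AT. Of 5150 named genes tested, 1591 (30.9%) rose and 1245 (24.2%) fell, and each gene group below is to be read against these shares. Either way, 55.1% of named genes passed. A change of at least 2-fold was called for 878 probe sets upward (14.2%) and 402 downward (6.52%), and for 686 named genes upward (13.3%) and for 360 downward (6.99%). Among named genes the extremes were lopsided, with 171 at a called log2 change of 2 or more and 29 at -2 or less. There were 53 named genes at 3 or more and 0 at -3 or less.

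The split between higher and lower depends on the scaling of the arrays. After quantile normalization 1581 were called higher and 1844 lower, with a median log2 change of -0.08 over all probe sets, against 0.07 with the signals as deposited. Centring each array on its median gave 1327 higher and 2172 lower, with a median of -0.19. A gene group is described below as mainly higher or lower only where its median kept its sign under both scalings, and the exceptions are named.

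**Figure D1:**
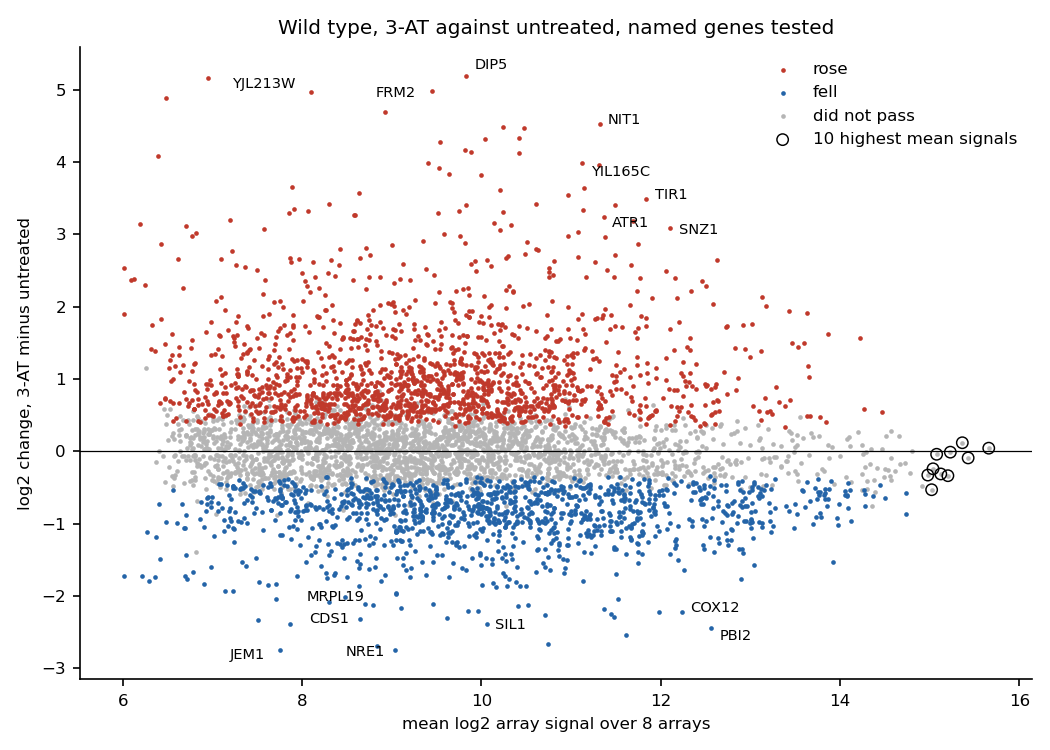
Log2 change in 3-AT against untreated wild type (vertical axis) for each of 5150 named genes tested, against its mean log2 signal over the 8 arrays (horizontal axis). Red points rose, blue points fell and grey points did not pass the test. Rises of 3 or more have no counterpart at -3 or less, and the 10 genes of highest mean signal, ringed, lie near 0.

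The target of the drug and its pathway were read first. HIS3, whose product 3-AT inhibits, read 12902, 13585, 12841 and 11822 in 3-AT, against 2648, 3369, 2385 and 2253 in untreated cells, and rose by 2.28 ± 0.16. All 7 histidine synthesis genes tested rose, with a median of 1.74. GCN4 mRNA read 15584, 9604, 16721 and 17729 in 3-AT, against 15396, 16907, 14258 and 15560.0 in untreated cells, a change of -0.10 ± 0.19 that did not pass (adjusted p = 0.70). The groups overlapped, and the level of Gcn4 is known to be set mainly by translation, which these arrays do not measure. GCN2, the kinase gene, rose by 0.62 ± 0.16 (adjusted p = 0.0063), a call lost after either rescaling, and actin mRNA, ACT1, changed by -0.32 ± 0.14 and did not pass (adjusted p = 0.073), though it was called lower in 5 of 18 alternatives, median centring and leaving out the third untreated array among them.

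The labels give no mating type, so markers of both cell types were read. STE3, the a-factor receptor gene of alpha cells, read 3340.4, 3606, 3503 and 3109 in 3-AT and 2336, 2303, 1833 and 1907 in untreated cells. The alpha-factor gene MF(ALPHA)1 changed by -0.25 ± 0.16 and did not pass. Of 7 genes specific to a cells, 3 passed the filter on dim probe sets, and 4 of 4 specific to alpha cells did. Of the 3 tested for a cells, 2 rose and 0 fell, with changes from -0.07 to 1.32. Of the 4 for alpha cells, 2 rose and 1 fell, with changes from -1.12 to 1.37.

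Among named genes above background on all 8 arrays, the 25 largest rises ran from 3.32 to 5.19 on the log2 scale. Several belong to amino acid uptake, aromatic amino acid breakdown and sulfur assimilation (DIP5, ARO9, ARO10, SUL2, MET1, STR3, MET28, MET13 and MET16). The others are more varied. FRM2, of the nitroreductase family, read 3854, 4932, 2702 and 4649 in 3-AT, against 145, 112, 122 and 123 in untreated cells, and rose by 4.98 ± 0.19 (adjusted p = 1.3e-08). Every 3-AT array stood far above every untreated one. Over all named genes tested, 28.0% had every 3-AT array above every untreated one and 21.5% had every one below.

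NIT1 and YIL165C are adjacent reading frames that form a single nitrilase gene in some strains of this species. NIT1 read 10823, 14268, 12658 and 11434 in 3-AT, against 605, 463, 530.1 and 544 in untreated cells, and rose by 4.52 ± 0.15 (adjusted p = 4.5e-09). YIL165C itself read 8341, 9224, 9229.5 and 8787 in 3-AT, against 631, 477, 585 and 567 in untreated cells, and rose by 3.98 ± 0.14. For both, the 4 arrays of a group lay close together and the groups were far apart.

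Genes of small-molecule metabolism made up much of the rest. TMT1 encodes a methyltransferase that acts on trans-aconitate and on an intermediate of leucine synthesis, and it read 4066, 4069, 3994 and 3199.6 in 3-AT, against 255, 166, 246 and 195 in untreated cells (4.17 ± 0.17). SRY1, for 3-hydroxyaspartate dehydratase, read 8776, 8235, 7087 and 7998 in 3-AT, against 839, 633, 683 and 472 in untreated cells (3.64 ± 0.18). ADH5, for an alcohol dehydrogenase isozyme, read 7942, 6842, 5912 and 8093 in 3-AT, against 657, 837, 669.7 and 677 in untreated cells (3.34 ± 0.16). In each of them every 3-AT array lay above every untreated one. YHI9 (4.48 ± 0.16), ECM13 (3.99 ± 0.24), YLR152C (3.61 ± 0.30) and ARO5 (3.83 ± 0.16, systematic name YGL117W) rose as far, and no role is given for them here. RTC2, for a vacuolar exporter of cationic amino acids, read 7206, 5171, 6976 and 7809.7 in 3-AT, against 267, 219.9, 481 and 300.0 in untreated cells (4.47 ± 0.23). VBA2, also of the vacuolar membrane, rose by 1.72 ± 0.17, and among vacuolar transporter genes 6 of 18 tested rose and 2 fell (median 0.28).

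Some genes had no untreated array above background and all 4 of the 3-AT arrays above it, which puts only a lower limit on their rise. There were 33 such named genes upward and 24 downward. The limit compares the 3-AT mean with, on each untreated array, the higher of that array's background and the gene's own signal. YJL213W, for a protein of the amidohydrolase family, read 1422, 2155, 1336 and 1338 in 3-AT, against 26.6, 38.8, 76.5 and 73.5 in untreated cells, none of these above background, and was at least 17.4-fold higher in 3-AT (adjusted p = 3.7e-07). BSC5 was at least 8.38-fold higher, YAR068W at least 5.52-fold, and JLP1, for a dioxygenase that frees sulfite from sulfonates, at least 4.51-fold. SRL4 was at least 3.94-fold higher and CRF1, for a corepressor of ribosomal protein genes, at least 3.51-fold. In the other direction JEM1, for a chaperone partner in the endoplasmic reticulum, read 68.4, 108, 95.3 and 66.9 in 3-AT, none above background, against 587, 518, 506 and 635 in untreated cells, and was at least 5.23-fold lower. GPM2, a minor homologue of phosphoglycerate mutase, was at least 2.74-fold lower in 3-AT. Others named below were above background on only some arrays of a group, so that their changes rest in part on signals below it. These were 1 of 4 untreated arrays for PRM1, NRG1 and SPO21, 2 of 4 for CRC1 and JEN1, and 3 of 4 for CYC7. In 3-AT they were 2 of 4 arrays for CDC21 and 3 of 4 for GAC1, ADR1 and IRE1.

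**Figure D2:**
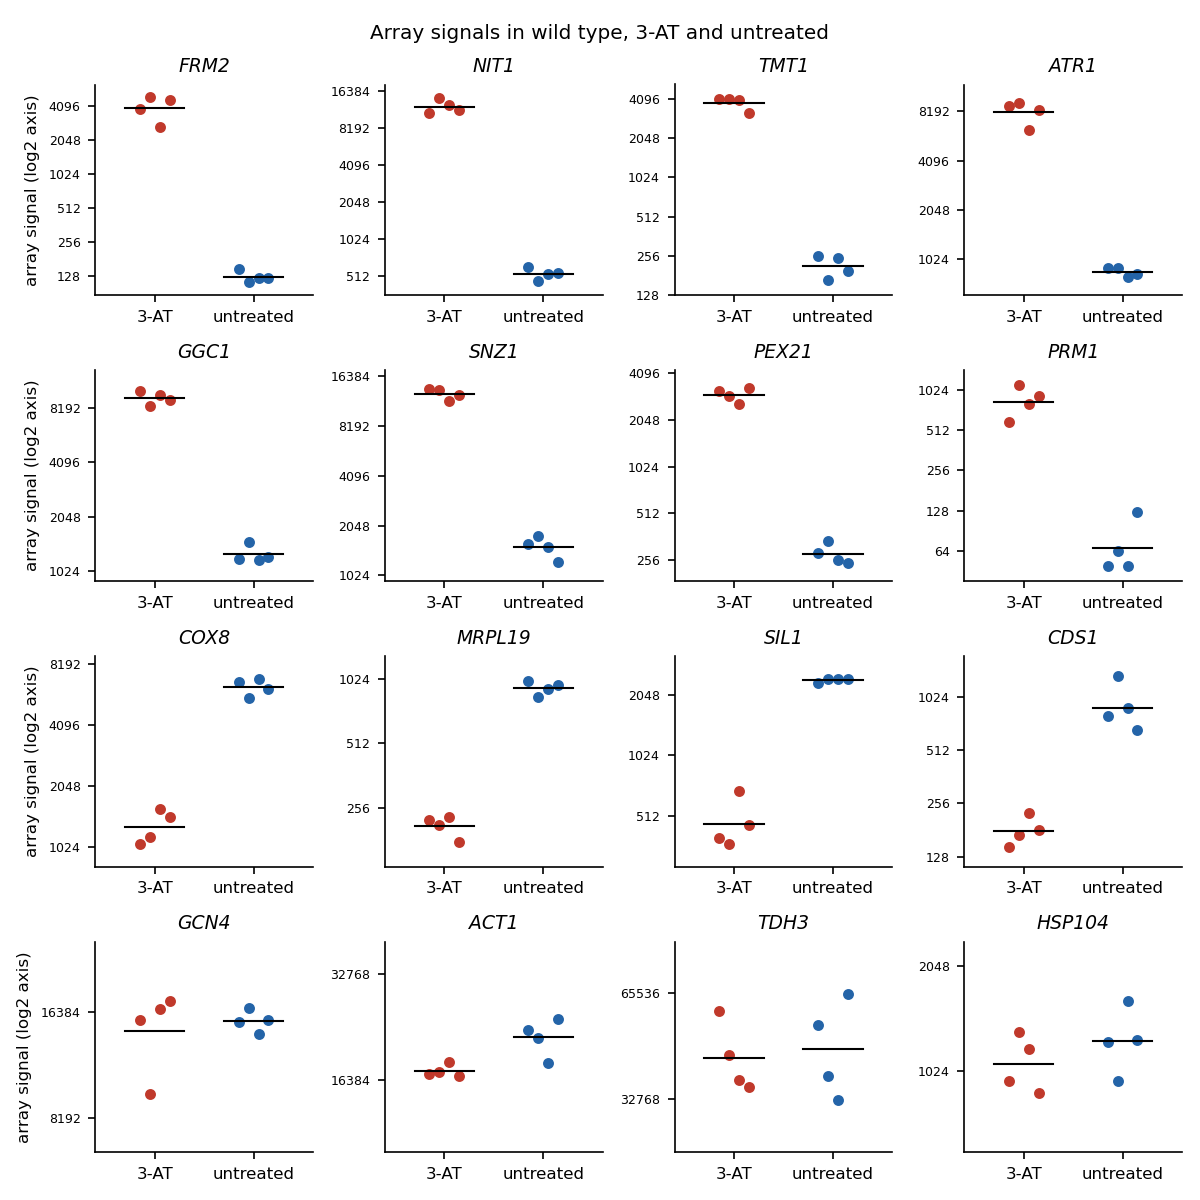
Array signal (vertical axis, log scale, arbitrary units) of 16 named genes, with the 4 arrays of 3-AT on the left and the 4 untreated arrays on the right of each panel and a bar at the mean of the log2 signals. In the top 8 panels each 3-AT array lies above each untreated one and in the next 4 below it, and in the bottom row the groups of GCN4, ACT1, TDH3 and HSP104 overlap.

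Mitochondrial carriers are the inner-membrane transporters that pass metabolites between matrix and cytosol, and many of them rose while the groups of mitochondrial genes described further on mainly fell. Of their genes, 15 of 27 tested rose and 5 fell (median 0.96). ORT1, the exporter of ornithine for arginine synthesis, read 2454, 2933, 2735 and 2774 in 3-AT, against 295, 258, 345 and 209 in untreated cells (3.32 ± 0.17). GGC1, for the GTP/GDP exchanger, read 10137, 8356, 9573 and 9033 in 3-AT, against 1203, 1490.2, 1180.3 and 1231 in untreated cells (2.86 ± 0.14), and YMC1, of the same family, rose by 2.11 ± 0.14. ODC2, for an exporter of 2-oxodicarboxylates, rose by 2.48 ± 0.19. Among the 5 that fell, MIR1, the phosphate importer, read 7085, 5697, 6900.3 and 5996 in 3-AT, against 13608, 10832, 10842 and 10188 in untreated cells (-0.82 ± 0.15), and PET9, the main ADP/ATP exchanger, read 4106, 4106, 5063 and 4466 in 3-AT, against 7224, 7762, 6859 and 7456 in untreated cells (-0.73 ± 0.13). In both the groups stood apart.

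Vitamin and cofactor pathways divided. Vitamin B6, whose active form pyridoxal phosphate is the coenzyme of aminotransferases, had 5 of 5 tested higher and 0 lower (median 1.72). SNZ1, its synthase, read 13751, 13536, 11608 and 12605 in 3-AT, against 1593, 1775, 1511 and 1230.4 in untreated cells (3.08 ± 0.15). SNO1, the partner glutaminase, rose by 2.79 ± 0.13, PDX3, the oxidase, by 1.72 ± 0.14, and TPN1, the importer, by 1.29 ± 0.17. For riboflavin, the precursor of FMN and FAD, 6 of 9 tested rose and 0 fell (median 0.64). Its last enzyme, riboflavin synthase, is encoded by RIB5, which read 1089.6, 1243, 1311 and 1120.5 in 3-AT, against 124, 104, 161 and 113 in untreated cells (3.26 ± 0.16). The riboflavin transporter gene MCH5 rose by 1.32 ± 0.16. For pantothenate and coenzyme A, 7 of 11 tested rose and 1 fell (median 0.60). CAB1, for pantothenate kinase, rose by 1.33 ± 0.18, and LEU5, needed for coenzyme A in mitochondria, by 1.26 ± 0.17.

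Biotin went the other way. Of its genes, 0 of 6 tested rose and 4 fell (median -0.59). BIO4, for dethiobiotin synthetase, read 2909, 2394, 2935 and 3626 in 3-AT, against 8058, 6142, 6824 and 8097 in untreated cells (-1.30 ± 0.17), and BIO2, for biotin synthase, fell by 1.27 ± 0.20. For BIO4 the groups did not overlap. NAD synthesis was split, with 3 of 13 tested higher and 3 lower (median 0.27). Its largest rises were of BNA3, for an aminotransferase of the kynurenine pathway (2.66 ± 0.20), and NRK1, for nicotinamide riboside kinase (2.07 ± 0.21), and PNC1, for nicotinamidase, fell by 0.95 ± 0.18. Thiamine genes were mixed as well, on a list that also holds the polyamine synthesis gene SPE4. On it 4 of 13 tested were higher and 6 lower (median 0.22), a median that was -0.03 after quantile normalization.

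Peroxisomes house fatty acid oxidation in yeast, and many of the genes that build them rose. Among peroxins, the assembly and import factors, 11 of 17 tested rose and 0 fell (median 0.73). PEX21, which works with Pex7 to import enzymes that carry the second type of targeting signal, read 3125, 2913, 2572 and 3283 in 3-AT, against 286, 343, 257 and 245 in untreated cells (3.40 ± 0.15). PEX7 itself rose by 1.17 ± 0.21 and PEX2, of the ubiquitin ligase of the import cycle, by 1.10 ± 0.14. For fatty acid oxidation 7 of 18 tested rose and 2 fell (median 0.35), with the nicotinamidase gene PNC1, also on this list, as 1 of the 2 that fell. CTA1, for peroxisomal catalase, was at least 1.85-fold higher in 3-AT, with no untreated array above background. PIP2, for an oleate-responsive activator, rose by 2.01 ± 0.20, but neither the thiolase gene POT1 (0.12 ± 0.23) nor the activator gene ADR1 (-0.24 ± 0.16) passed. Carnitine carries acetyl units between peroxisomes, cytosol and mitochondria. YAT2, a carnitine acetyltransferase gene, read 2747, 2149, 3436 and 3319 in 3-AT, against 165, 209, 205 and 187 in untreated cells (3.91 ± 0.17), CRC1, for the mitochondrial carnitine carrier, rose by 3.08 ± 0.45, and CAT2, for another carnitine acetyltransferase, by 1.18 ± 0.16.

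Many drug exporter genes rose and none of those tested fell. In that group 14 of 21 tested rose and 0 fell (median 1.01). ATR1, whose product pumps 3-AT out of the cell, read 8848, 9209, 6321 and 8377 in 3-AT, against 900.5, 909, 804 and 828 in untreated cells (3.24 ± 0.15). Its homologue ATR2 was at least 3.49-fold higher in 3-AT, with no untreated array above background. PDR12, the weak-acid exporter, rose by 1.82 ± 0.13, and PDR5, the multidrug exporter, by 0.79 ± 0.16. The regulator gene PDR3 rose by 1.16 ± 0.16, and its partner PDR1 did not pass (0.05 ± 0.13). Polyamine exporters followed in part, TPO1 by 2.12 ± 0.19 and TPO4 by 2.21 ± 0.28, with TPO2 not called (0.10 ± 0.18).

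Iron and copper genes moved in both directions. In iron and copper uptake, 9 of 22 tested rose and 6 fell (median 0.01), a median whose sign changed to -0.03 after quantile normalization. ENB1, the enterobactin importer, rose by 2.57 ± 0.19 and FRE2, a ferric reductase gene, by 1.80 ± 0.21. The high-affinity iron permease FTR1 fell by 0.88 ± 0.16 and the copper importer CTR1 by 1.25 ± 0.20. Among phosphate genes 7 of 16 tested rose and 1 fell (median 0.33), with the phosphate transporter gene PHO89 at 1.25 ± 0.21 and the vacuolar phosphatase gene PHO8 at 1.75 ± 0.14. ZRT1, the zinc importer, did not pass (0.03 ± 0.17).

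Storage carbohydrate genes rose. Trehalose and glycogen are the reserve sugars of yeast, and 11 of 20 tested rose and 1 fell (median 0.74). GLG1, a primer of glycogen synthesis, read 1149, 1248, 1306 and 1310.4 in 3-AT, against 176, 236, 397 and 199 in untreated cells (2.39 ± 0.22). TPS2, for trehalose-phosphate phosphatase, read 6049, 5281, 4955 and 4851 in 3-AT, against 927, 942, 2673 and 1420.1 in untreated cells (1.96 ± 0.29), and the trehalase gene NTH1, whose product breaks trehalose down, rose by 1.25 ± 0.15. The third untreated array stood above the other untreated ones for several of these genes, as for TSL1, a trehalose synthase subunit gene, at 1129.5, 1208, 3861 and 1356 untreated against 2382, 2479, 2868 and 2287 in 3-AT. TSL1 did not pass (0.61 ± 0.33) but was called higher without that array. Without it 13 members of the group rose and 1 fell, with a median of 1.01. GAC1, for a targeting subunit of the phosphatase that activates glycogen synthase, fell by 0.99 ± 0.22.

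Groups of carbon metabolism genes went different ways. Of 24 genes of glycolysis and fermentation, 4 rose and 6 fell. TDH3 (-0.09 ± 0.24), CDC19 (-0.04 ± 0.21), ENO1 (-0.31 ± 0.21) and PGK1 (-0.27 ± 0.20) did not pass. In the glyoxylate and gluconeogenic group, which glucose represses, 6 of 11 tested rose and 1 fell (median 0.76). ICL1, for isocitrate lyase, read 2902, 3455, 3528 and 3825 in 3-AT, against 389, 367, 522 and 378 in untreated cells (3.06 ± 0.16), and its activator gene SIP4 was at least 2.80-fold higher (no untreated array above background). Among hexose transport genes 2 of 13 tested rose and 3 fell (median -0.23). HXT2 fell by 2.26 ± 0.26 and HXT4 fell by 1.55 ± 0.27, while HXT1 (-0.32 ± 0.16) and HXT3 (-0.23 ± 0.15) did not pass. HXT2 read 586, 643, 683 and 1324 in 3-AT, against 5247, 2843, 3433 and 3538 in untreated cells, so even the highest 3-AT array was below the lowest untreated one. The pentose phosphate pathway, which supplies NADPH, had 2 of 18 tested higher and 7 lower (median -0.32). ZWF1, its first enzyme, rose by 0.91 ± 0.20, and GND2, a minor isozyme of its NADPH-forming second dehydrogenase, read 436, 484, 549 and 398 in 3-AT, against 2454, 1333, 2774 and 2299 in untreated cells (-2.21 ± 0.22).

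Regulators of nitrogen and amino acid metabolism were higher, with 17 of 24 tested higher and 1 lower (median 0.83). UGA3, the activator of GABA catabolism, read 8656, 9103, 10080.0 and 9580.2 in 3-AT, against 825, 746, 1167 and 839 in untreated cells (3.41 ± 0.16). STP2, an activator of permease genes under the external amino acid sensor, rose by 2.43 ± 0.17, BAS1, which with Pho2 activates purine and histidine genes, by 1.68 ± 0.15, and LEU3, the leucine pathway activator, by 1.61 ± 0.17. GLN3, the GATA activator, read 669.8, 759, 869.6 and 578 in 3-AT, against 236, 183, 194 and 229 in untreated cells (1.76 ± 0.17). PCL5, the cyclin that marks Gcn4 for destruction, rose by 2.62 ± 0.13. Of the sensor, SSY1 (-0.05 ± 0.14) and SSY5 (-0.07 ± 0.15) did not pass, and PTR3 rose by 0.85 ± 0.15.

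The share of autophagy genes that rose was near that of all named genes. ATG1, the kinase that starts autophagy, read 981, 1031, 1134 and 1323 in 3-AT, against 129.6, 132, 250.5 and 193 in untreated cells (2.71 ± 0.22), and its regulatory partner ATG13 rose by 1.42 ± 0.20. ATG8, the ubiquitin-like protein of the autophagosome, did not pass (0.02 ± 0.27). Over the list 8 of 23 tested rose and 2 fell (median 0.29), and the median was -0.01 after quantile normalization. Of 16 genes of Ras and protein kinase A, 6 rose and 3 fell. YAK1 (1.52 ± 0.24) and RIM15 (1.08 ± 0.17), kinases that the pathway restrains, rose, as did PDE1 (1.40 ± 0.21) and PDE2 (1.10 ± 0.15), which degrade cyclic AMP. BCY1, the regulatory subunit of protein kinase A, fell by 0.73 ± 0.13. Of 28 genes of the TOR pathway, 12 rose and 2 fell. NPR1, a kinase held off by TORC1, rose by 0.97 ± 0.14, and YPK2, a substrate kinase of TORC2, rose by 2.21 ± 0.29.

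Many mating genes rose, and the labels name no pheromone treatment. Among genes of the pheromone pathway, 16 of 22 tested rose and 0 fell (median 0.95). PRM1, for a cell fusion protein, read 589, 1106, 809 and 926 in 3-AT, against 49.5, 63.9, 49.5 and 125 in untreated cells (3.65 ± 0.29). SST2, which shuts off the pheromone signal, read 2285, 2882, 2354 and 2327 in 3-AT, against 322, 286, 479.8 and 278 in untreated cells (2.88 ± 0.19), and FUS1, for another fusion protein, was at least 4.40-fold higher with no untreated array above background. GPA1, for the G protein alpha subunit, rose by 1.70 ± 0.15. The kinases of the cascade did not pass (STE11 at 0.20 ± 0.15, STE7 at 0.28 ± 0.14 and FUS3 at 0.18 ± 0.18), nor did the transcription factor STE12 (0.34 ± 0.19).

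Genes known for expression in low oxygen rose too, with 10 of 17 tested higher and 1 lower (median 0.67). TIR1, a cell wall mannoprotein, read 13771, 12818, 11967 and 10736 in 3-AT, against 1169, 1092, 939 and 1181 in untreated cells (3.49 ± 0.14). ROX1, the repressor of hypoxic genes, read 1359.6, 1174, 982 and 983 in 3-AT, against 185, 121, 172 and 163 in untreated cells (2.81 ± 0.18), and CYC7, the minor isoform of cytochrome c, rose by 1.99 ± 0.25. HAP4, which activates respiration genes, rose by 1.24 ± 0.14. OLE1, the fatty acid desaturase gene, which also responds to oxygen, fell by 1.24 ± 0.19. Of adhesion and filamentation genes 6 of 13 tested rose and 1 fell. Those that rose include the repressor gene NRG1 (3.34 ± 0.39) and the flocculin gene FLO11 (1.66 ± 0.22). Of 39 listed meiosis and sporulation genes 10 were bright enough to test, and SPO21, for a spindle pole component of meiosis, rose most (3.29 ± 0.26), whereas the inducer IME1 did not pass (0.06 ± 0.24).

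**Figure D3:**
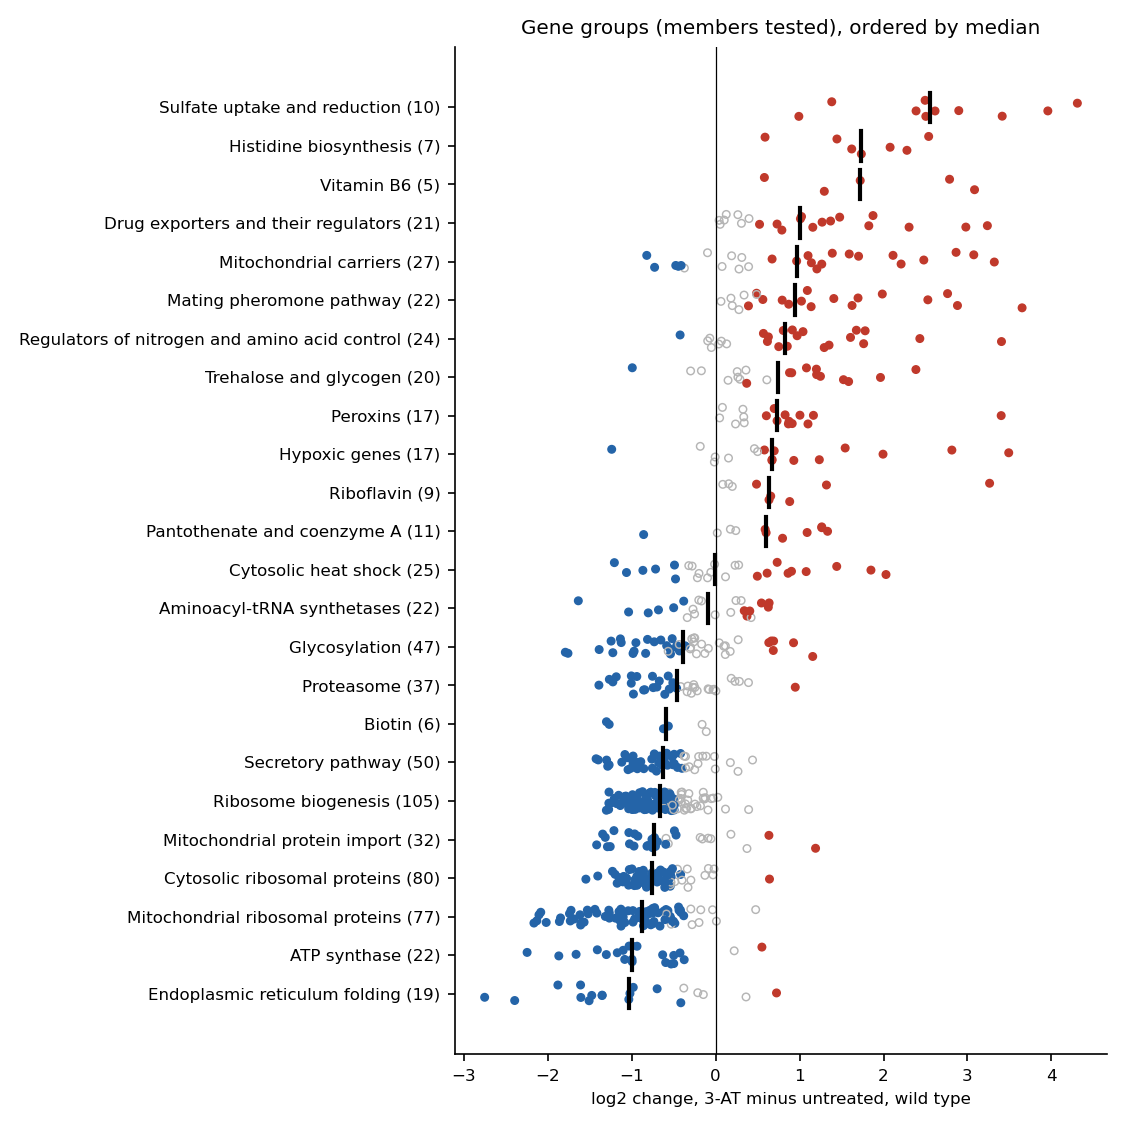
Log2 change in 3-AT against untreated wild type (horizontal axis) of each tested member of 24 gene groups (rows). Each dot is a gene, filled where it passed the test, and the black bar is the group's median. Groups run from the sulfate uptake genes at the top, with a median of 2.56, to the endoplasmic reticulum folding genes at the bottom, with a median of -1.03.

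The falls were smaller. The 25 largest among named genes above background on all 8 arrays ran from -2.75 to -2.02. NRE1, for an enzyme that reduces diketones, read 199.6, 258, 152 and 216 in 3-AT, against 1183, 1516, 1608 and 1207 in untreated cells (-2.75 ± 0.19, adjusted p = 5.9e-07). PBI2, an inhibitor of vacuolar proteinase B, read 2049, 1731, 4077 and 3121 in 3-AT, against 13586, 13048, 13536 and 16238 in untreated cells (-2.44 ± 0.24). XPT1, a purine salvage enzyme, fell by 2.13 ± 0.18, and DSK2, a shuttle of ubiquitinated proteins to the proteasome, by 2.04 ± 0.15. RDN5-1, a 5S ribosomal RNA gene, read lower too (-2.54 ± 0.15), but the genome holds many near-identical copies of it and the value cannot be given to one of them.

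Genes of oxidative phosphorylation fell, those of ATP synthase nearly throughout. For ATP synthase, the enzyme that makes ATP from the proton gradient, 1 of 22 tested rose and 20 fell (median -0.996). STF2, a factor linked to the enzyme's inhibitor, read 1273, 1224, 1600.5 and 1071 in 3-AT, against 5245, 5716, 7078 and 6390.4 in untreated cells (-2.25 ± 0.16), INH1, the inhibitor, fell by 1.87 ± 0.19, and ATP2, the catalytic beta subunit, by 1.10 ± 0.14. The list for complexes III and IV, the cytochrome bc1 complex and cytochrome oxidase, also holds genes of cytochrome c and of NADH dehydrogenases. Of its 23 genes 11 fell and 1 rose, the cytochrome c gene CYC7. COX8, a small subunit of cytochrome oxidase, read 1069, 1151, 1577 and 1449.7 in 3-AT, against 6669.8, 5591, 6888 and 6193 in untreated cells (-2.29 ± 0.16), and COX12 read 1762, 1942, 2692 and 2744 in 3-AT, against 9717, 10169, 11940.0 and 10037 in untreated cells (-2.22 ± 0.18). The larger nuclear-encoded subunit COR1 of complex III did not pass (0.36 ± 0.22), nor did CYT1, for cytochrome c1 (0.26 ± 0.17). Among assembly factors of cytochrome oxidase 2 of 19 tested rose and 10 fell (median -0.59), and COX17, its copper chaperone, fell by 2.20 ± 0.16. In the citrate cycle 2 of 14 tested rose and 5 fell (median -0.30).

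The machinery that makes and imports mitochondrial proteins was broadly lower. Of 77 mitochondrial ribosomal protein genes tested, 0 rose and 68 fell, with a median of -0.87, against a share of 24.2% of named genes that fell. MRPL19 read 226, 213, 232 and 178 in 3-AT, against 1003, 841, 912 and 954 in untreated cells (-2.13 ± 0.14). MEF1, the elongation factor of mitochondrial translation, fell by 2.11 ± 0.19, and RRF1, the ribosome recycling factor, was at least 2.57-fold lower with no 3-AT array above background. For import into mitochondria 2 of 32 tested rose and 22 fell (median -0.74). TOM6, a small subunit of the outer membrane translocase, read 2495, 2391, 3127 and 2809 in 3-AT, against 7166, 7728, 6606 and 7303 in untreated cells (-1.42 ± 0.14), and TIM23, the inner membrane channel, fell by 1.32 ± 0.15. ERV1, which oxidises imported proteins, was one of the 2 that rose (1.19 ± 0.18).

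The endoplasmic reticulum folds and modifies proteins for secretion. Of its folding genes, 1 of 19 tested rose and 14 fell (median -1.03). SIL1, a nucleotide exchange factor for the chaperone Kar2, read 398, 370.3, 681 and 463 in 3-AT, against 2356, 2468, 2469 and 2475 in untreated cells (-2.39 ± 0.19). PDI1, the disulfide isomerase, fell by 1.35 ± 0.16 and KAR2 by 1.02 ± 0.18. HAC1, the activator of the unfolded protein response, and IRE1, its sensor, did not pass (0.36 ± 0.45 and -0.38 ± 0.17). Among genes of vesicle and translocation machinery 0 of 50 tested rose and 36 fell (median -0.63). ERP1, a cargo receptor of the p24 family, read 2032, 1960.2, 2594 and 2095 in 3-AT, against 5750.4, 5429, 6384 and 5641 in untreated cells (-1.42 ± 0.14), its family member ERP2 fell by 2.30 ± 0.22, and SAR1, the GTPase of COPII coats, by 1.40 ± 0.16.

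Genes of glycosylation, phospholipid synthesis and fatty acid synthesis fell more often than they rose, and other lipid genes were mixed. Of glycosylation genes 6 of 47 tested rose and 22 fell (median -0.39). PMI40, which makes mannose-6-phosphate, the source of all mannose in glycans, read 1209, 972, 1498 and 1320.2 in 3-AT, against 5505, 5971, 5939.7 and 5088 in untreated cells (-2.18 ± 0.16). MCD4, of glycosylphosphatidylinositol anchor synthesis, read 1618, 1599, 2644 and 1808 in 3-AT, against 8235, 8452, 9150.4 and 9041 in untreated cells (-2.22 ± 0.17), and the protein O-mannosyltransferase genes PMT1 and PMT2 fell by 1.79 ± 0.16 and 1.76 ± 0.13. In phospholipid synthesis 5 of 25 tested rose and 12 fell (median -0.39). CDS1 makes CDP-diacylglycerol, the branch point of the pathway, and read 146, 169, 227 and 181 in 3-AT, against 804, 1343, 887 and 663 in untreated cells (-2.32 ± 0.22). INO1, the inositol synthase, fell by 1.26 ± 0.16. In fatty acid synthesis 4 of 20 tested rose and 10 fell (median -0.48), with the elongase ELO2 down by 1.77 ± 0.19, its homologue ELO1 up by 2.22 ± 0.13, and the acetyl-CoA carboxylase gene ACC1 down by 0.75 ± 0.14. Of sphingolipid genes 5 of 21 tested rose and 5 fell (median -0.16). Sterol genes were mixed, with 7 of 25 tested higher and 4 lower (median 0.20) and a median of -0.06 after median centring.

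Cytosolic translation genes fell too. Of cytosolic ribosomal protein genes with a probe set of their own, 1 of 80 tested rose and 65 fell (median -0.76). RPS22B, for a small subunit protein, was among them (2232, 2418, 1505 and 2008 in 3-AT, against 5494, 6638, 5999 and 5426 in untreated cells, -1.55 ± 0.17). In ribosome biogenesis 0 of 105 tested rose and 69 fell (median -0.67), and KRR1, of the small subunit processome, fell by 1.25 ± 0.20. Among translation factors 1 of 37 tested rose and 25 fell (median -0.66). TIF35, a subunit of initiation factor eIF3, read 2358, 2212, 1748 and 2194 in 3-AT, against 6242, 6092, 4496 and 5525 in untreated cells (-1.39 ± 0.16), and ANB1, an isoform of eIF5A made in low oxygen, was the 1 that rose (0.70 ± 0.19), a call lost after median centring. The proteasome had 1 of 37 tested higher and 19 lower (median -0.47), and RPN4, the activator of proteasome genes, was the 1 that rose (0.95 ± 0.24). UMP1, its assembly factor, read 184, 193, 155 and 168 in 3-AT, against 545, 398, 378 and 532 in untreated cells (-1.39 ± 0.17). Aminoacyl-tRNA synthetase genes showed no common direction, with 6 of 22 tested higher and 6 lower (median -0.09). HTS1, which charges the histidine tRNA, did not pass (0.18 ± 0.22).

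Of 29 genes of the G1/S transition, 5 rose and 12 fell. Lower was CDC21, for thymidylate synthase, at 126, 87.6, 125 and 82.8 in 3-AT, against 372, 475, 374 and 288 in untreated cells (-1.85 ± 0.20). NRM1, a repressor that closes G1 transcription, rose by 0.77 ± 0.13. In G2/M, 6 of 18 tested rose and 1 fell (median 0.19), a share near that of all named genes, with a median of -0.06 after quantile normalization. CDC20, the activator of the anaphase-promoting complex, rose by 2.14 ± 0.18, and the mitotic cyclin genes CLB1 (-0.16 ± 0.17) and CLB2 (0.01 ± 0.20) did not pass. Of 37 cytoskeleton genes 5 rose and 14 fell, and TWF1, for an actin-monomer binding protein, fell by 1.36 ± 0.14.

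Several groups known for stress responses were not uniformly changed. In the cytosolic heat shock group 9 of 25 tested rose and 6 fell (median -0.01). HSP42, a small heat shock protein, read 11941, 13060.0, 12717 and 11910.0 in 3-AT, against 2285, 2162, 5375 and 3202 in untreated cells (2.03 ± 0.25), with the third untreated array again the highest of its group. HSP104 did not pass (-0.22 ± 0.19), and HSC82, an Hsp90 gene, fell by 1.06 ± 0.17. In the general stress group 6 of 20 tested rose and 3 fell (median 0.23), and neither HSP12 (-0.16 ± 0.17) nor the cytosolic catalase gene CTT1 (-0.23 ± 0.24) passed. Of oxidative stress genes 8 of 21 tested rose and 5 fell (median -0.0014). CCP1, cytochrome c peroxidase, rose by 1.71 ± 0.14, whereas TRX2, thioredoxin, fell by 0.44 ± 0.13 and HYR1, a peroxidase and peroxide sensor, by 1.05 ± 0.15. The medians of these 3 groups were -0.27, -0.03 and -0.26 after median centring.

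The 10 named genes of highest mean signal did not pass the test, a rank of array brightness and not of mRNA amount, and saturation of these probe sets was not tested. They include the cell wall gene CCW12, TDH3 and the Hsp70 gene SSA1. CCW12 read 76909, 60695, 40132 and 40435 in 3-AT, against 65398, 41138, 34404 and 72844 in untreated cells (0.04 ± 0.28), a spread within groups wider than the difference between them. For 568 of 5150 named genes the 95% interval of the change lay within 0.5 on either side of 0. In heme synthesis 2 of 10 tested rose and 0 fell (median 0.02), and centring on the median gave a median of -0.24.

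Genes beside the largest changes sometimes moved with them. Of the 25 largest rises, 8 have a divergently transcribed neighbour that was tested, and 5 of these neighbours rose, 1 fell and 2 did not pass. Over all named genes tested 30.9% rose and 24.2% fell, and whether neighbours differ from these shares was not tested. NUT2, a Mediator subunit gene beside MET16, was at least 2.46-fold higher (no untreated array above background). YAP5, an iron-responsive activator gene beside MET28, rose by 1.52 ± 0.20, and GLT1, the glutamate synthase gene beside UGA3, by 1.19 ± 0.16. JEN1, the lactate permease gene, lies 3894 bp from SRY1 and rose by 1.40 ± 0.24. SPL2, of the phosphate response, lies beside ARO9 and rose by 0.82 ± 0.21. SDH6, of complex II assembly, lies beside ARO10 and fell by 0.65 ± 0.18. Of 11 tested neighbours of the 25 largest falls, 5 fell, 1 rose and 5 did not pass.

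The same treatment of the gcn4 strain shows which of these changes differ without Gcn4. GCN4 mRNA read 4.21 to 62.3 on the 8 gcn4 arrays, 0 of them above background, against 9604 to 17729 on the 8 wild-type arrays. The response in wild type minus that in gcn4 passed the test for 989 of 6531 probe sets (15.1%), 419 with wild type higher (6.42%) and 570 with it lower (8.73%). With all 72 arrays in 1 fit the count was 389, and with replicate number added to the main fit as a block it was 1515. Of the 25 largest rises 18 were larger in wild type, 0 were smaller, and 23 rose in gcn4 as well (39.8% of all probe sets rose there), where their median was 2.07, against 3.96 in wild type. Of the 25 largest falls, 24 fell in gcn4 too (25.6% of all probe sets fell there), with a median of -2.19, against -2.22 in wild type, and the difference passed for 5 of them. Both sets were chosen by their changes on the same wild-type arrays, which by itself favours a stronger response in wild type.

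**Figure D4:**
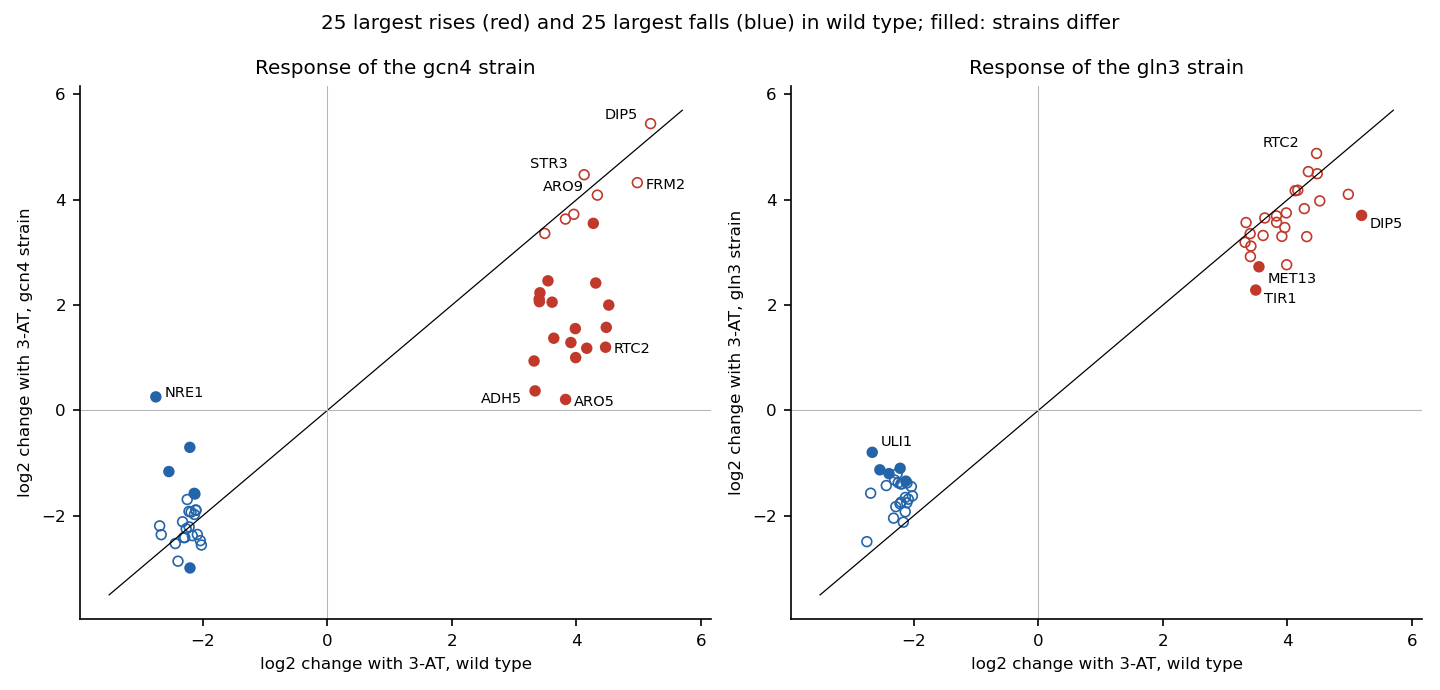
Log2 change with 3-AT in the gcn4 strain (left panel) or the gln3 strain (right panel) on the vertical axis against the log2 change in wild type on the horizontal axis, for the 25 largest rises and 25 largest falls in wild type. Filled points differ between the strains by limma's test, and the line marks equal response. In the gcn4 panel 18 rises are filled and lie below the line, with ARO5 and ADH5 near 0, while DIP5 and ARO9 lie near it. In the gln3 panel 3 rises and 5 falls are filled.

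Among rises that were larger in wild type, ARO5 rose by 3.83 ± 0.16 in wild type and changed by 0.21 ± 0.15 in gcn4, a difference of 3.62 ± 0.22 (adjusted p = 8.2e-11). ADH5 changed by 0.37 ± 0.18 in gcn4 (difference 2.96 ± 0.25), RTC2 by 1.20 ± 0.30 (difference 3.27 ± 0.42) and TMT1 by 1.18 ± 0.15 (difference 2.98 ± 0.22). The carrier gene YMC1 rose in wild type and fell in gcn4 (-1.11 ± 0.12, difference 3.22 ± 0.17). SNO1, of vitamin B6, differed by 3.54 ± 0.26, and 3 of 5 genes of that group were higher in the wild-type response. By contrast FRM2 rose by 4.33 ± 0.23 in gcn4, DIP5 by 5.45 ± 0.22, ARO9 by 4.09 ± 0.22, and TIR1 by 3.36 ± 0.18. Their differences of 0.65 ± 0.33, -0.26 ± 0.31, 0.25 ± 0.31 and 0.13 ± 0.26 did not pass (adjusted p = 0.20, 0.66, 0.66 and 0.79), which does not show that the responses were equal. FRM2 was above background on 2 of the 4 untreated gcn4 arrays, and RTC2 on 3 of them. SNO1 was above it on 3 of the 4 gcn4 arrays in 3-AT. Of the 22 genes of the pheromone pathway 1 differed from gcn4, with the wild-type response lower.

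In other genes the change was lower in wild type than in gcn4. NRE1 fell by 2.75 ± 0.19 in wild type and changed by 0.26 ± 0.18 in gcn4, a difference of -3.01 ± 0.25 (adjusted p = 7.8e-09). For cytosolic heat shock genes the wild-type response was lower on 19 of 25, with a median change of -0.01 in wild type, against 1.62 in gcn4. BTN2, for a protein sorting chaperone, rose by 1.08 ± 0.25 in wild type and by 4.98 ± 0.30 in gcn4 (difference -3.90 ± 0.42), and SSA4, for an inducible Hsp70, rose by 0.90 ± 0.17 in wild type and by 3.53 ± 0.16 in gcn4 (difference -2.63 ± 0.23). Of 20 general stress genes 11 were lower in the wild-type response. Aminoacyl-tRNA synthetase genes ran opposite, with 12 of 22 higher in the wild-type response, a median of -0.09 in wild type, against -0.83 in gcn4. Biotin genes fell less in wild type, 5 of 6 differing, with a median of -0.59, against -2.11 in gcn4. For the 3 groups of lowest median in wild type, folding in the endoplasmic reticulum, ATP synthase and mitochondrial ribosomal proteins, the difference passed for 2 of 19, 1 of 22 and 2 of 77 genes.

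Fewer differences were called against the strain without Gln3. GLN3 mRNA read 0.741 to 11.5 on the 8 gln3 arrays, 0 of them above background, against 183 to 870 on the 8 wild-type arrays. The response in wild type minus that in gln3 passed for 60 of 6531 probe sets (0.919%), 28 with wild type higher (0.429%) and 32 with it lower (0.490%). With replicate number added to the fit as a block the count was 174. With all 72 arrays in 1 fit, which takes in 3 arrays of other strains with an actin 3′/5′ ratio above 10, it was 4. The count was below 40 without any 1 of 11 arrays: 27 without wild-type 3-AT replicate 1 or 2 or gln3 3-AT replicate 3, 30 without gln3 3-AT replicate 2, and 31 without wild-type untreated replicate 4 or gln3 untreated replicate 3. It was 33 without gln3 untreated replicate 4, 35 without gln3 untreated replicate 2, 37 and 38 without wild-type untreated replicates 1 and 3, and 39 without gcn4 untreated replicate 1. All 25 of the largest rises rose in gln3, where 32.7% of all probe sets rose, and all 25 of the largest falls fell, as 19.8% of probe sets did. Here too the choice of these genes by their wild-type changes favours a stronger response in wild type. The difference passed for 3 of the rises, DIP5 (3.70 ± 0.22 in gln3, difference 1.49 ± 0.31), TIR1 (2.29 ± 0.18, difference 1.21 ± 0.26) and MET13 (2.73 ± 0.12, difference 0.82 ± 0.17), each larger in wild type. It passed for 5 of the falls, each deeper in wild type. These were ULI1, known to respond to endoplasmic reticulum stress (-0.79 ± 0.22 in gln3, difference -1.87 ± 0.31), RDN5-1, SIL1 (-1.20 ± 0.14, difference -1.20 ± 0.20), MCD4 and MAM33, for a mitochondrial matrix protein. Elsewhere PTR2, the di- and tripeptide importer gene, rose by 1.99 ± 0.18 in wild type and changed by -0.09 ± 0.18 in gln3 (difference 2.09 ± 0.26). ROX1 changed by 0.99 ± 0.21 in gln3 (difference 1.83 ± 0.29), and SST2 by 1.77 ± 0.17 (difference 1.11 ± 0.25). Of 22 pheromone pathway genes 3 were higher in the wild-type response and 0 lower, with a median of 0.95, against 0.39 in gln3. Of 17 hypoxic genes 3 were higher and 0 lower, with a median of 0.67, against 0.51 in gln3. YPK2 rose by 2.21 ± 0.29 in wild type and changed by -0.25 ± 0.38 in gln3 (difference 2.45 ± 0.53). DIP5 was above background on 3 of the 4 untreated gln3 arrays, and YPK2 on 3 of the 4 gln3 arrays in 3-AT.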

How the data were processed

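Signals came from 72 Affymetrix yeast arrays, of which 8 are compared here and 24 enter the comparison of strains. Per the submitters' processing notes, GCOS and MAS5 were used, with versions not given in the sources used here, and the deposited table holds 1 linear intensity per probe set and array. Tested on the table, the mean without the lowest and highest 2% of values was 1001 on every array, so the authors scaled each array to a common level. Per the labels' protocols, 5 ug of total RNA from hot phenol extraction was made into biotinylated cRNA.

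Of 9335 probe sets 60 controls were left out. Gene names came from the platform annotation, updated through Entrez identifiers, and 6504 probe sets had 1 named gene, 328 several and 2443 none. Of several probe sets of a gene the brightest was kept. Intensities under 16.5, the 10th percentile of the table, were set to it before log2. limma 3.58.1 (R 4.3.3) fitted group means to the 8 arrays, with the variance moderated over probe sets and p-values adjusted by the Benjamini-Hochberg method. The difference of responses came from 24 arrays of 6 groups in 1 fit. Wild type was fitted alone because 3 arrays of other strains had an actin 3′/5′ ratio above 10, and the median residual SD was 0.253 with the 8 arrays and 0.390 with all 72. Tested on simulated data for the 8 arrays over 6166 probe sets, the fit recovered 83% of log2 changes of 1 and 97% of log2 changes of 2, with 4.26% false among its calls. The simulation changed far fewer probe sets than were called in the data, as many up as down, and drew independent noise. These shares therefore need not hold for the data. The number of arrays limits the precision. Tables and figures used Python 3.11.15, pandas 2.3.3, numpy 2.4.6 and matplotlib 3.10.9.

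Genes are named by rule: the 25 largest rises and falls among called genes above background on all 8 arrays, up to 10 in each direction with a bound only, members of listed groups (for groups of over 25, the 4 of smallest adjusted p in each direction), the 10 of highest mean signal, HIS3, GCN2, GCN4, GLN3, ATR1 and ACT1, and divergent neighbours of the first set. The groups were listed from general knowledge of yeast. The members, lists and tests were chosen with earlier results of these data known, so no pattern in them is independent support. Alternatives covered the arrays fitted, scaling, floor, filter, choice of probe set, replicate block, left-out arrays and threshold. Promoter motifs were not analysed here.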

Additional observations from a re-analysis of the deposited data

Results flagged for a closer look

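The response differed between wild type and a deletion strain by limma's test of the difference for 18 of the named genes whose differences are given above. In wild type minus gcn4 the differences in log2 change were 3.62 for ARO5, 3.54 for SNO1, 3.27 for RTC2, 3.22 for YMC1, 2.98 for TMT1, 2.96 for ADH5 and 1.08 for MET13. They were -2.63 for SSA4, -3.01 for NRE1 and -3.90 for BTN2. In wild type minus gln3 they were 2.45 for YPK2, 2.09 for PTR2, 1.83 for ROX1, 1.49 for DIP5, 1.21 for TIR1, 1.11 for SST2, 0.815 for MET13, -1.20 for SIL1 and -1.87 for ULI1.

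A single array stood far from the other 3 of its group for 24 of 408 groups checked (5.88%), by Dixon's criterion on log2 signals, which chance alone meets in about 1 of 20. One 3-AT array lay above the rest, with its signal in brackets, for ELO2 (replicate 4, 911), ENO1 (replicate 1, 42637), HYR1 (replicate 3, 2879), SST2 (replicate 2, 2882), STP2 (replicate 3, 5099.7) and YJL213W (replicate 2, 2155). One 3-AT array lay below the rest, with its signal in brackets, for ATG8 (replicate 1, 903), CTR1 (replicate 2, 407), HTS1 (replicate 3, 2043), RIM15 (replicate 1, 669), TMT1 (replicate 4, 3199.6) and TPO4 (replicate 4, 1144). One untreated array lay above the rest, with its signal in brackets, for ADH5 (replicate 2, 837), COR1 (replicate 3, 2273), GPM2 (replicate 3, 549), ICL1 (replicate 3, 522), LEU3 (replicate 4, 585), NRK1 (replicate 2, 140.1) and TSL1 (replicate 3, 3861). One untreated array lay below the rest, with its signal in brackets, for BCY1 (replicate 4, 4475), HXT4 (replicate 3, 2004), MET13 (replicate 2, 515), PDR5 (replicate 2, 1499) and SIL1 (replicate 1, 2356).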

How the results depend on the processing

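The 3332 probe sets called in wild type numbered 2989 to 3397 when each of the 8 arrays was left out in turn, and 2360 to 3509 over the alternatives in scaling, floor, filter, probe set choice, block and arrays fitted. A 2-fold minimum left 1280, with 878 higher and 402 lower. The 1436 lower calls became 2172 after median centring and 920 with all 72 arrays in 1 fit. No called gene named here changed direction in any alternative run. Of the 169 named genes called, 160 kept the call in all of the 18 alternatives, threshold and size aside, in which they were tested. ATP2, BCY1, MIR1, SDH6, SSA4, TIM23 and ZWF1 lost it with all 72 arrays, and GCN2 and ANB1 after rescaling. Of the 35 not called, ACT1, ADR1, COR1, HSP104, HTS1, HXT1, HXT3, IRE1, MF(ALPHA)1, STE12, TSL1 and ZRT1 were called in some alternative. The 989 differences from gcn4 were 846 to 1059 with an array left out and 389 with all 72 arrays. The 60 differences from gln3 were 27 to 64 with an array left out and 4 with all 72 arrays. The replicate block gave 3443 calls in wild type, 1515 differences from gcn4 and 174 from gln3. The deviations of wild-type arrays with the same number correlated at 0.24, -0.15, 0.38 and -0.09. Over the 6 groups of the strain comparison, the correlations of 60 same-numbered pairs ran from -0.18 to 0.60 and 50 were over 0.1. In 8 of 15 pairs of groups every same-numbered pair was over 0.1. The labels do not say what a replicate number marks, so the block was kept as an alternative. Any spread that same-numbered arrays share therefore stays in the error of the main fits. The cause of these changes was not tested. Promoter motifs were not run. Signals near background limited 33 named genes upward and 24 downward to a bound.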
